A study of Homo sapiens and Mus musculus with 8 samples.

Results

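BaF3-T315I cells are a mouse pro-B cell line that depends on a foreign BCR-ABL kinase with the T315I mutation, and the response of their mRNA to JOA (Jiyuan oridonin A) is described here. JOA is an ent-kaurene diterpenoid related to oridonin. The series holds 8 libraries of 2 cell lines, and the 4 libraries used here are 2 of BaF3-T315I cells kept for 48 h in JOA at 2 μM and 2 of control cells of the same line after the same time. What the control cells received instead of JOA is not given in the sources used here. Cells of both groups carry p210 BCR-ABL with T315I, introduced with a retroviral vector, and whether the line is 1 clone or a pool is not stated. The members are all genes whose level, averaged over the 4 libraries, was 0.5 FPKM or more, which 12872 of the 22457 genes in the mouse table reached, against 57598 genes in both tables of the series. FPKM, the fragments of a gene scaled to its exon length and to the depth of the library, was taken from the deposited table. The gene just inside this limit had 0.597 and 0.306 FPKM with JOA and 0.537 and 0.563 FPKM in the controls, and the gene just outside it had 0.641 and 0.787 FPKM with JOA and 0.307 and 0.264 FPKM in the controls.

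BCR-ABL is the fusion kinase of chronic myeloid leukemia (CML). It signals without a cytokine through RAS and ERK, PI3K and STAT5, and keeps expression of c-MYC high, so that cells grow and do not differentiate. The T315I mutation changes the gatekeeper residue of the ABL kinase domain and prevents imatinib from binding. Parental BaF3 cells need interleukin-3 to live, and BCR-ABL replaces this need, which is why the line is used to compare BCR-ABL mutants. The table lists mouse gene identifiers without names, and no mouse annotation was used here. Genes are therefore described by their level, their length and their response, at most 2 higher and 2 lower genes are given by identifier, and neither the markers of pro-B or myeloid cells nor c-MYC, CDKN2A and BCR-ABL were examined. These are bulk libraries, in which fewer cells with a transcript and less of it per cell cannot be told apart.

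The reads behind the values were recovered from the table itself. In each library, the FPKM of a gene is its number of reads divided by its exon length and by the read total of the library, so all 4 values of a gene must give whole reads at a single whole length. Such numbers were found for all 22457 genes, and in the tested genes the largest distance from a whole read was 0.000135 reads. The read totals used as denominators were 22091212 and 21588169 in the JOA libraries, and 18439747 and 21477586 in the control libraries. A factor that is common to all reads of a gene and to its length cannot be seen in this way, so reads and lengths are the smallest that give the values. The tested genes had a median exon length of 3361 bases and a median of 588 reads per library, and 77.1% of them had a mean of at least 100 reads. They held 99.8% of the reads in the table in every library. Intervals from reads cover counting error only.

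With JOA, 1207 genes rose in mRNA expression and 1961 fell, which is 9.38% and 15.2% of the 12872 genes tested. A gene was called when limma, a moderated linear model fitted to log2(FPKM + 0.5) across all genes, gave it p under 0.05 after Benjamini-Hochberg adjustment and it differed by 0.58 or more on the log2 scale in either direction. The spread of changes was wide on both sides. From the 5th to the 95th percentile of all tested genes, the log2 fold change of JOA over control ran from -1.13 to 0.96, around a median of -0.11. Among the genes that rose, the lower and upper quartiles were 0.74 and 1.23, and among those that fell they were -1.23 and -0.72. The adjusted p of the called genes lay between 0.00647 and 0.0499. In each of the 1207 and 1961 genes the JOA libraries and the controls did not overlap. The same separation, at any size of change, was found for 28.5% of all tested genes above the controls and for 44.5% below them, so it is a common state of genes in these libraries. The balance of the 2 directions depended on the scaling. As deposited, 38.1% of the calls were higher and 61.9% lower. After median-ratio scaling, which sets the middle gene to no change and moves the median log2 fold change by 0.11, the calls were 1597 higher (12.4% of the genes tested) and 1490 lower (11.6%), or 51.7% and 48.3% of the calls. With voom weights, limma on the recovered reads, an alternative chosen after the data were seen, called 1385 genes higher (11.4% of 12131 tested) and 2216 lower (18.3%), of which 1161 and 1868 were also called on log2(FPKM + 0.5). With single libraries left out, limma called 762 genes higher and 1261 lower without JOA replicate 2, and 96 higher and 73 lower without control replicate 1. Without control replicate 2 it called 0 in both directions, where an unadjusted p under 0.05 was reached by 1548 higher and 2488 lower genes.

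**Figure D1:**
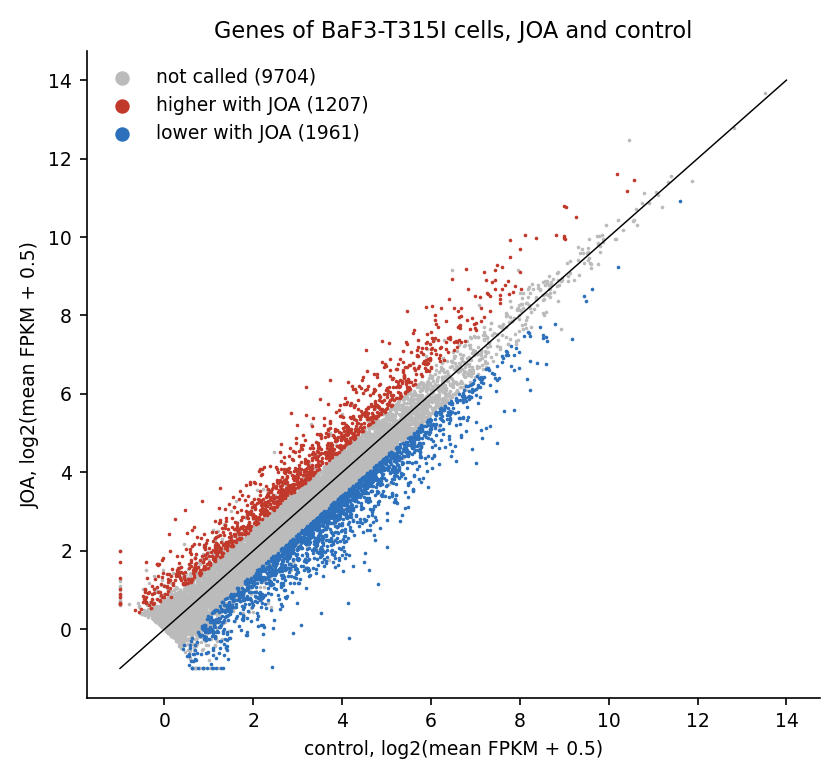
Each point is 1 of the 12872 tested genes, with its mean level in the 2 JOA libraries on the vertical axis and in the 2 control libraries on the horizontal axis, both as log2(mean FPKM + 0.5). The 1207 genes called higher (red) and the 1961 called lower (blue) lie on both sides of the line of equal levels.

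The called genes took up a large part of the sequenced mRNA. Genes that rose held 21.8% and 23.8% of the tabled reads in the JOA libraries, against 10.7% and 9.60% in the controls. Genes that fell held 11.3% and 9.99% of the reads with JOA, against 20.8% and 22.1% in the controls. The genes that were not called held 66.7% and 66.0% with JOA and 68.3% and 68.0% in the controls. These sets were chosen by the same values, so the shares describe the size of the exchange and carry no test. In reads, the genes that rose had 4736715 and 5050054 with JOA and 1946016 and 2023998 in the controls. The median change of the higher genes was 0.84 and 1.00 on the log2 scale when JOA replicate 1 was set against control replicates 1 and 2, and 0.87 and 1.03 for JOA replicate 2. For the lower genes these medians were -0.78 and -0.86 for JOA replicate 1, and -0.93 and -1.002 for JOA replicate 2. For both sets, JOA replicate 2 and control replicate 2 formed the pair that stood farthest apart.

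The largest increase among called genes averaging 5 FPKM or more was that of ENSMUSG00000031903. It had 64.1 and 79.2 FPKM in the JOA libraries, against 11.3 and 5.84 FPKM in the controls. These levels rest on 4265 and 5151 reads with JOA and on 629 and 378 reads in the controls, at an exon length of 3013 bases, so both JOA values are far above both controls, and the controls differ more from each other, in proportion, than the JOA libraries. The means were 71.6 ± 10.7 FPKM with JOA and 8.58 ± 3.87 FPKM in the controls (SD, n = 2 each), and limma gave a log2 fold change of 3.05 with a standard error of 0.32 (adjusted p = 0.0074).

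ENSMUSG00000112249, with an exon length of 791 bases, had 40.3 and 50.6 FPKM with JOA, against 9.53 and 3.83 FPKM in the controls. It was read 704 and 864 times in the JOA libraries and 139 and 65 times in the controls. Here too control replicate 1 was the higher of the controls, and the groups did not overlap. limma gave a log2 fold change of 2.79 with a standard error of 0.41 (adjusted p = 0.0111), and it ran from 2.19 to 3.40 with 1 library left out. The call was lost without JOA replicate 2 (log2 fold change 2.63) and without control replicate 2 (2.19), where limma called no gene at all. Over the alternatives that kept all 4 libraries, the adjusted p from limma ran from 2.81e-04 to 0.042.

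The largest decrease was that of ENSMUSG00000065706, a short gene of 130 bases of exon. It had 0.348 and 0.356 FPKM with JOA, against 11.7 and 22.9 FPKM in the controls. In reads this is 1 and 1 with JOA, and 28 and 64 in the controls, so the level with JOA is set by single reads. Over both libraries of each group, the rate of reads with JOA was 0.0199 times that of the controls, with an exact interval at 95% confidence from 0.00237 to 0.0738 for counting error. In limma its log2 fold change of -4.31 had a standard error of 0.32 (adjusted p = 0.00665). Its size depended on the pseudocount, with log2 fold changes of -5.19 at 0.1 and -3.69 at 1, and it was -5.0 with voom weights on the recovered reads.

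ENSMUSG00000087113, of 876 bases, had 1.40 and 0.793 FPKM with JOA, against 14.3 and 19.6 FPKM in the controls. It was read 27 and 15 times with JOA and 231 and 368 times in the controls. The means were 1.09 ± 0.426 FPKM with JOA and 16.9 ± 3.72 FPKM in the controls (SD, n = 2 each), and limma gave a log2 fold change of -3.46 with a standard error of 0.25 (adjusted p = 0.00665). Both JOA libraries lay below both controls by far more than the replicates of a group differed. The 2 lower genes and ENSMUSG00000031903 were called in 14 of 15 alternatives. The exception was the fit without control replicate 2, in which limma called no gene at all. There the log2 fold changes were -3.84 for ENSMUSG00000065706, -3.24 for ENSMUSG00000087113 and 2.6 for ENSMUSG00000031903.

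**Figure D2:**
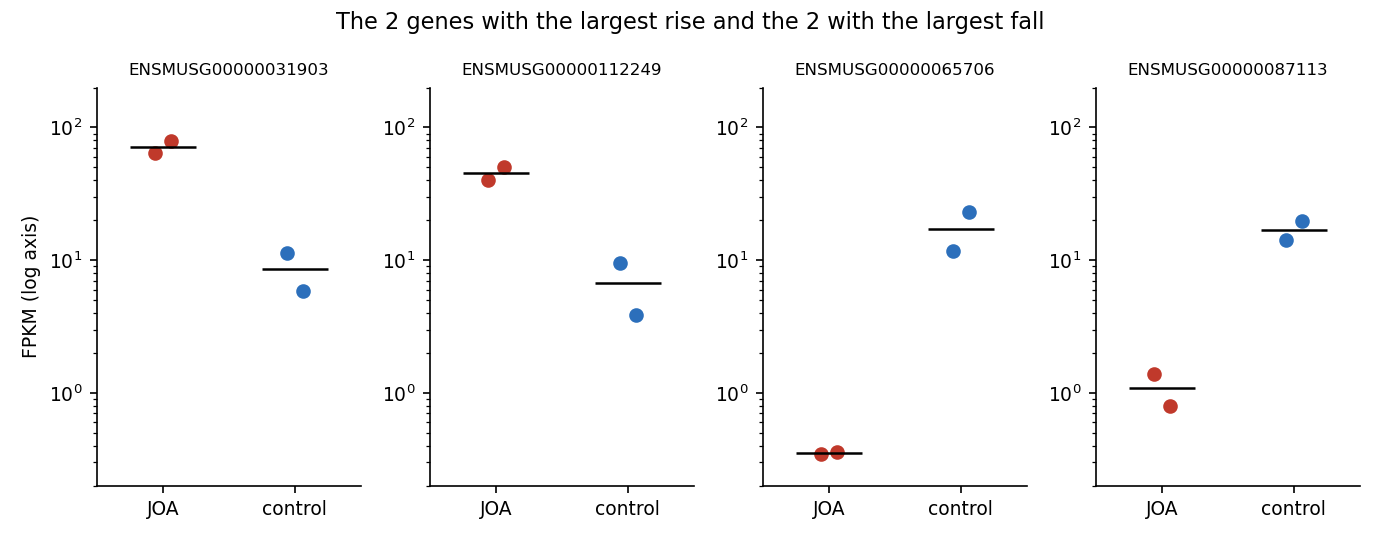
FPKM on a log axis of the 2 called genes with the largest rise (left) and the 2 with the largest fall (right) among genes averaging 5 FPKM or more, with JOA on the left and control on the right of each panel. Points are the 2 libraries of a group and lines are their means, and in no panel do the groups overlap.

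Larger sets of called genes with the largest changes were also described, and they include the genes given by identifier above. Only genes whose JOA and control libraries did not overlap could enter, so their separation was fixed by the choice. Of the 12 called genes with the largest log2 fold change at a mean of at least 5 FPKM, the changes ran from 2.37 to 3.05 and the exon lengths from 78 to 3245 bases, with a median of 1679. Their median levels were 104 and 110 FPKM in the JOA libraries, against 24.6 and 10.3 FPKM in the controls, and the highest of them reached 563 and 603 FPKM with JOA. The group thus holds genes of high as well as of modest level. The 12 genes with the smallest log2 fold change ran from -4.31 to -2.52, with exon lengths from 130 to 3922 bases. Their median levels were 2.58 and 2.72 FPKM with JOA, against 18.5 and 28.0 FPKM in the controls. Their adjusted p lay between 0.00647 and 0.0182, and that of the 12 higher genes between 0.00647 and 0.0212 (limma). After median-ratio scaling limma called all 12 higher and all 12 lower genes, and with voom weights it called 11 and 12. The remaining higher gene had only 35 reads over the 4 libraries. It was not tested with voom weights, which needed a mean of at least 10 reads. These genes were chosen by the same values, so the ranges are a description with no test.

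Some genes were not read at all in a group. Among all 22457 genes, 31 had no read in both controls and at least 3 reads in each JOA library, and 50 had no read in both JOA libraries and at least 3 in each control. Of these, 4 and 1 passed the minimum mean, so nearly all lie outside the tested genes. With at least 10 reads in each library of the other group, 0 genes were read with JOA only and 3 with control only. These 3 genes, chosen after their values were seen, had 21 and 50, 12 and 37, and 18 and 13 reads in the controls. The mean level of both controls was 25.2, 17.3 and 11.5 times the level that 3 reads over both JOA libraries would give. The lower control of each gene stood less far above that level.

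The distance between JOA and control libraries was several times that between replicates. For pairs of libraries with at least 2000 reads of a gene in sum, the log2 ratio of single JOA to single control libraries deviated from its median by 0.334 to 0.402 (median over 4448 to 4879 genes). The same measure was 0.124 between the JOA libraries and 0.0925 between the controls. Counting error alone would give between 0.0305 and 0.0317, so the replicates differed by 4.06 and 2.99 times the counting error. A ratio past the fold threshold, after subtraction of the median of the pair, was found for 26.3% to 36.1% of the genes between a JOA and a control library, against 1.66% between the JOA libraries and 1.08% between the controls. The labels do not say whether the replicates came from separate cultures. A general statement in the paper that experiments were repeated independently gives another number of repeats than the libraries per group here, and p-values measure the spread between these libraries only.

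**Figure D3:**
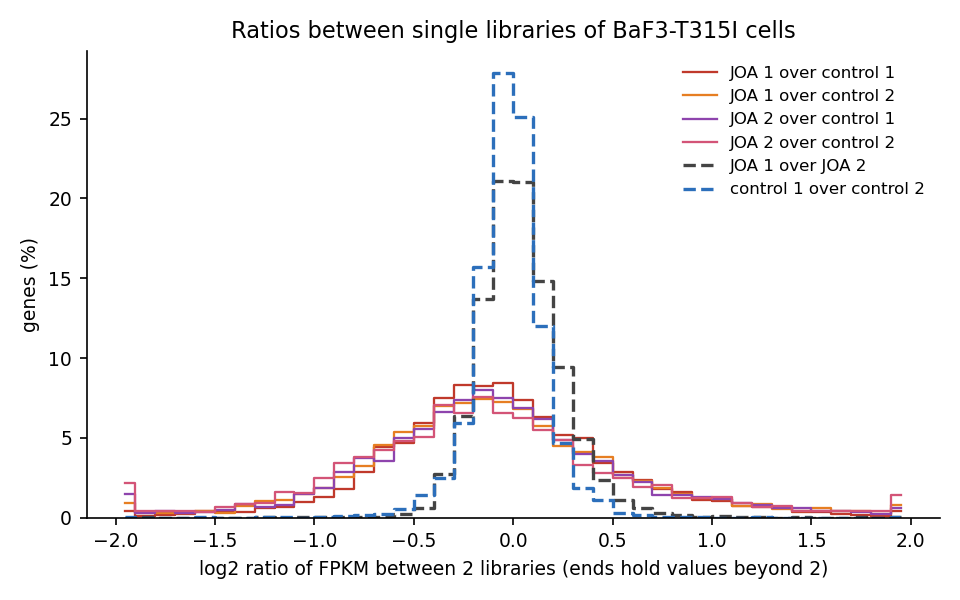
Share of genes (%) by the log2 ratio of FPKM between 2 libraries, for genes with at least 2000 reads over both libraries, in steps of 0.1. The 4 solid lines set a JOA library against a control library and are broad, with median absolute deviations of 0.334 to 0.402, and the dashed lines set replicates against each other and are narrow, with 0.124 for JOA and 0.0925 for control.

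The response differed with the level of a gene. Of the 441 genes with an average of 100 FPKM or more, 105 rose and 61 fell, or 23.8% and 13.8%, against 9.38% and 15.2% of all genes tested. Of the 2352 genes from 20 to under 100 FPKM, 15.2% rose and 471 genes, or 20%, fell. Of the 4917 genes from 5 to under 20 FPKM, 8.58% rose and 17.6% fell, and of the 3774 genes from 1 to under 5 FPKM these shares were 7.31% and 13.1%. In the lowest class, from 0.5 to under 1 FPKM, 46 of 1388 genes rose and 69 fell, or 3.31% and 4.97%. As deposited, the class of the most abundant genes was the only one of these 5 with more genes higher than lower, and this depended on the scaling. After median-ratio scaling, more genes were higher than lower also from 20 to under 100 FPKM (19.1% and 15.1%) and from 0.5 to under 1 FPKM (4.47% and 4.32%), and the shares at 100 FPKM and above were 26.8% and 10.2%. After quantile normalization, which gives all libraries the same distribution of levels, 88 of the genes at 100 FPKM and above were higher and 83 lower. More genes were then higher than lower also from 20 to under 100 FPKM (411 and 403), from 1 to under 5 FPKM (395 and 383) and from 0.5 to under 1 FPKM (66 and 55).

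The classes also differed in precision. The median residual standard deviation on the log2 scale was 0.236 in the lowest class, where a gene had a median of 20 reads, and 0.130 in the highest, with 9240 reads. It was lowest, at 0.111, in both classes between 5 and 100 FPKM. The part of precision in the shares of calls was not tested. The median log2 fold change of the genes at 100 FPKM and above was 0.10, which is 0.21 above the median of all tested genes, while the medians of the other 4 classes lay within 0.05 of it. In 44.7% of these genes both JOA libraries lay above both controls and in 33.8% below, against 28.5% and 44.5% of all tested genes. With voom weights on reads, 24.7% of the genes at 100 FPKM and above were higher and 14.1% lower, and in the lowest class 10.4% and 12.5% of the 943 genes tested were.

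**Figure D4:**
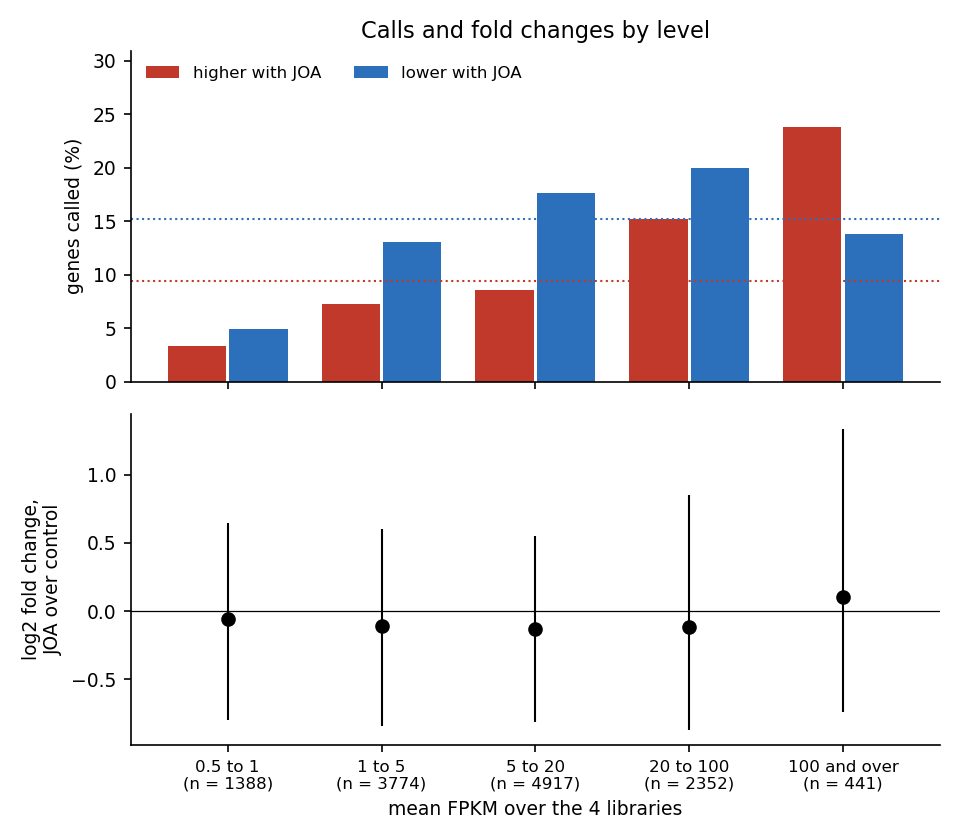
Above, the share of genes (%) called higher (red) and lower (blue) with JOA by mean FPKM over the 4 libraries, with dotted lines at 9.38% and 15.2%, the shares of all genes tested. Below, the median log2 fold change of JOA over control in each class (point) and the range from the 10th to the 90th percentile (line), which in the class of 100 FPKM and over reaches from -0.74 to 1.34.

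The mRNA was somewhat more concentrated in few genes with JOA. The 100 most abundant genes of each library held 36.0% and 35.8% of its summed FPKM with JOA and 32.9% and 31.9% in the controls, and the 1000 most abundant held 66.7% and 67.2% against 62.9% and 62.2%. Genes of at least 100 FPKM held 37.0% and 38.5% of the tabled reads with JOA and 33.0% and 31.9% in the controls. The genes between 5 and 20 FPKM held 24.8% and 24.1% with JOA and 27.0% and 27.6% in the controls. In each of these shares the groups did not overlap, but 2 libraries against 2 cannot go below p = 0.333 in a two-sided exact permutation test. The summed FPKM include a gene of 57 bases described below. It held 2.75% and 0.537% with JOA and 0.0843% and 0.781% in the controls, and the shares were not recomputed without it. Of the 100 genes with the highest mean over the 4 libraries, all at 396 FPKM or more, 18 rose and 5 fell, against 9.38% and 15.2% of all genes tested. Their log2 fold changes ran from -1.13 to 2.31, with a median of 0.11. Of the 10 highest, with at least 2170 FPKM, 1 rose and 1 fell.

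One very abundant short gene went with single libraries rather than with JOA. It had an exon length of 57 bases and was picked after its values were seen, as the most abundant gene under 100 bases. Its level was 9567 and 1789 FPKM with JOA, against 275.9 and 2514 FPKM in the controls. In reads this was 12047 and 2202 with JOA and 290 and 3078 in the controls, so JOA replicate 2 lay below control replicate 2. Its log2 fold change was 2.31 with a standard error of 1.29 (adjusted p = 0.222 from limma). It held 2.75% of the summed FPKM of JOA replicate 1, 0.537% of that of JOA replicate 2, and 0.0843% and 0.781% of those of the controls. The sum of FPKM was 348007 and 333112 with JOA and 327411 and 322085 in the controls. Without this gene the sums were 338440 and 331323 with JOA and 327135 and 319571 in the controls.

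Calls were also counted by exon length. The choice of members used length, since FPKM is scaled to it, and so a short gene passed the minimum mean on few reads. Of the 3534 genes from 2000 to under 4000 bases, 12.3% rose and 16.7% fell, and of the 3838 genes from 4000 to under 8000 bases these shares were 9.02% and 16.3%. Of the 1592 genes of at least 8000 bases, 96 rose and 244 fell, or 6.03% and 15.3%, against 9.38% and 15.2% of all genes tested. The share that fell was thus near that of all genes in the long classes, while the share that rose was smaller in the longest genes. Their log2 fold changes lay closer together, with the 10th and 90th percentiles at -0.74 and 0.40, against -0.83 and 0.73 from 2000 to under 4000 bases. As deposited, both JOA libraries lay above both controls in 24.7% of the longest genes and below in 54.6%, against 28.5% and 44.5% of all tested genes. These shares hold at any size of change and were not recomputed after scaling. After median-ratio scaling, limma called 8.04% of the longest genes higher and 11.4% lower, against 12.4% and 11.6% of all genes tested. Of the genes at 100 FPKM and above, 24 of the 70 with at least 4000 bases rose and 9 fell, and 68 of the 262 with 1000 to under 4000 bases rose and 46 fell. These counts are as deposited. Over all lengths, 118 genes at this level were higher and 45 lower after median-ratio scaling, and 109 and 62 with voom weights. After quantile normalization the excess of higher genes was nearly absent (88 higher and 83 lower over all lengths). That step gives all libraries the same distribution of levels, so it cannot show whether these genes rose as a class.

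At the short end few reads stand behind a value. The 542 genes under 200 bases had a median of 3.50 reads per library and a median residual standard deviation of 0.636, against 0.0832 in genes of at least 8000 bases. Of them, 28 rose and 63 fell, or 5.17% and 11.6%, against 9.38% and 15.2% of all genes tested. With voom weights, which take the read number into account, 122 of these genes could be tested with a mean of at least 10 reads, and 2 were higher and 12 lower, against 11.4% and 18.3% of all genes tested in this way. Genes of low read number also hold many large changes that were not called in the reported limma fit on the deposited FPKM. Calls of the other fits were not counted by read number, and genes with a mean under 10 reads were not tested with voom weights. Of the 741 genes with a mean under 10 reads, 137 were higher and 212 lower by the fold threshold at any p, or 18.5% and 28.6%. Calls were made for 32 and 60 of them, or 4.32% and 8.1% of the class, against 9.38% and 15.2% of all genes tested. Of the 4412 genes with 1000 to under 10000 reads, 520 and 855 passed the fold threshold, or 11.8% and 19.4%. Among them 506 and 835 were called, or 11.5% and 18.9% of the class. In this class nearly all genes past the fold threshold were also called. A call needs both the threshold and the test, and genes passing the test alone were not counted.

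**Figure D5:**
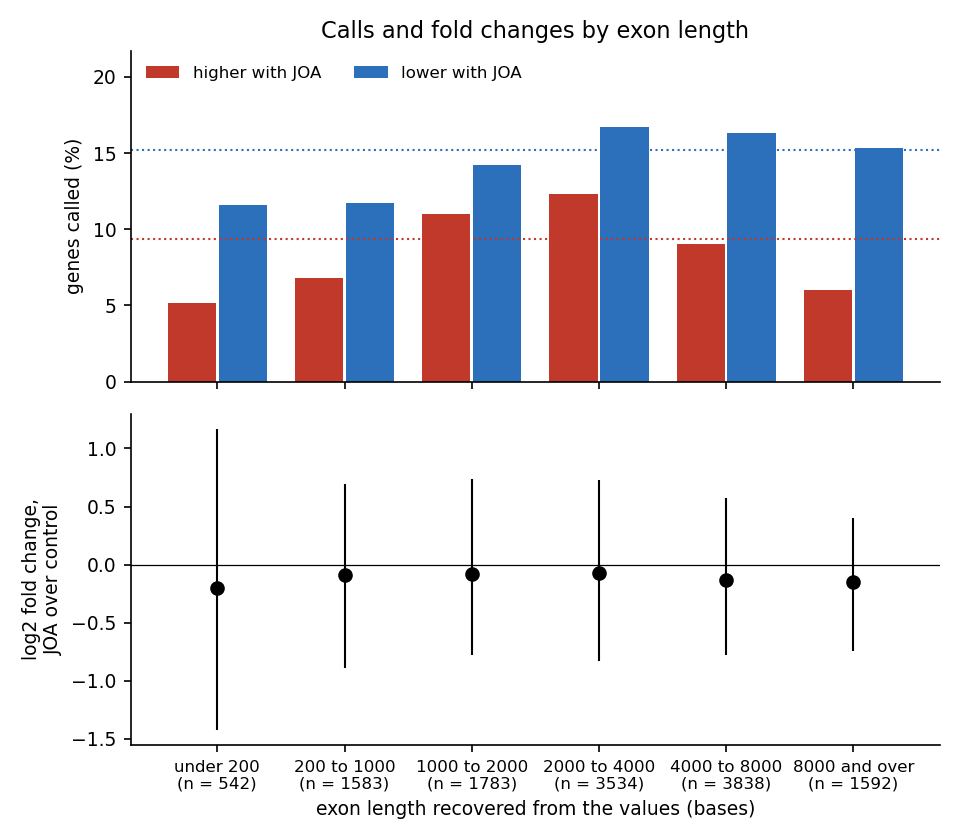
Above, the share of genes (%) called higher (red) and lower (blue) with JOA by the exon length recovered from the values, in bases, with dotted lines at 9.38% and 15.2%, the shares of all genes tested. Below, the median log2 fold change of JOA over control (point) and the range from the 10th to the 90th percentile (line) in each class, which is widest under 200 bases and narrowest from 8000 bases.

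The reads shifted between lengths in the libraries as a whole. The mean exon length of the gene that a read fell in was 5078 and 5115 bases in the JOA libraries, against 5279 and 5379 bases in the controls. Genes of at least 8000 bases held 16.9% and 17.0% of the reads with JOA and 18.4% and 19.2% in the controls, and genes from 2000 to under 4000 bases held 31.9% and 31.9% with JOA and 30.6% and 30.2% in the controls. The groups did not overlap in these measures, and the smallest p of an exact test is again 0.333. For genes under 1000 bases the groups overlapped, with 4.49% and 4.08% of the reads with JOA and 4.14% and 3.94% in the controls.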

How the data were processed

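BaF3-T315I cells, 2 libraries with JOA and 2 controls, were sequenced as TruSeq Stranded mRNA libraries. The authors deposited FPKM values, 1 column per library. The submitters' notes name Trimmomatic, HISAT2, Cufflinks, HTSeq and the build mm10, without versions, while the paper's methods name TPM. The annotation release is not given in the sources used here. Groups come from sample titles. Reads were recovered with numba 0.67.0 as whole numbers, with a tolerance of 1e-05 reads plus 2e-08 of the reads. The deposited FPKM were tested as log2(FPKM + 0.5) without further scaling, with limma 3.58.1 in R 4.3.3, a variance trend, no covariate and 2 residual degrees of freedom, two-sided, on genes averaging 0.5 FPKM or more. The fit was tested on simulated data in which all genes shared the same spread and few genes changed. This setting differs from the data, so it does not show how often calls are right here. Tables and plots used Python 3.11.15, pandas 2.3.3, numpy 2.4.6 and matplotlib 3.10.9. Alternatives were other pseudocounts, filters, scalings, no trend, an unadjusted p, a replicate block and each library left out, plus voom weights, added later. Identifiers named are the 2 called genes that rose most and the 2 that fell most among those averaging 5 FPKM or more. The members and the rule were chosen with earlier results of these data known. Gene lists by name could not be matched to identifiers and were not used.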

Additional observations from a re-analysis of the deposited data

How the results depend on the processing

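The counts of called genes stayed within 1.5 times the reported 1207 higher and 1961 lower genes with pseudocounts of 0.1 and 1, other filters, TPM, median-ratio or quantile scaling, no trend, an unadjusted p and voom weights as deposited. With voom weights and median-ratio scaling together, 1820 genes were higher. With single libraries left out, the counts ran from 0 to 882 higher and from 0 to 1975 lower. The low ends are those without control replicate 2, and every such fit has 1 residual degree of freedom. The labels do not say whether libraries with the same replicate number belong together. Across the 12872 genes, the differences between replicates 1 and 2 correlated by 0.012 between JOA and control. With the number as a replicate block, limma called 1195 genes higher and 1938 lower. No named gene changed sign in any alternative. These genes were chosen for their large changes in the same values, so this is a description with no test. Depth limits the genes with a mean under 10 reads, where the median residual standard deviation was 0.537 on the log2 scale, against 0.0959 from 1000 to under 10000 reads.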
